A study of Homo sapiens with 11 samples.

Results

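The retinoblastoma (RB) and E2F pathway was described in HEK293T, a line derived from human embryonic kidney, after transfection with either wild type or mutant DFNA5. The genes were chosen by symbol, with earlier results of these data known. They were the transcription factor genes E2F1 to E2F6, the pocket protein genes RB1, RBL1 and RBL2, and TFDP1, which encodes the DNA binding partner of E2F proteins. All probes whose platform annotation names these 10 genes were taken, which gave 13 of the 42000 probes on the beadchip. Of the 13 probes 11 passed the detection filter, and every gene kept at least 1 probe.

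Expression was measured on Illumina HT12 beadchips, 1 array per sample, in cells transfected with wild type DFNA5 (wtDFNA5, 5 arrays) or mutant DFNA5 (mutDFNA5, 6 arrays) using lipofectamine. DFNA5, now named GSDME, encodes gasdermin E, and the mutant cDNA lacks the exon that is skipped in the inherited hearing loss linked to this gene. The arrays were run to find transcripts whose level depends on which construct the cells received. Sample titles call the mutant samples KO, although the labels name mutant DFNA5 and no deletion. The labels place the harvest at 6 h after transfection and the extraction of RNA for the arrays at 12 h. No empty vector array was analysed here, so a difference can come from either construct, and rose and fell mean relative to wtDFNA5. In total RNA of a whole dish, fewer cells of a kind and less RNA per cell cannot be told apart.

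E2F proteins bind DNA as pairs with a DP protein and control the genes that a cell needs to enter S phase. In resting cells the pocket proteins hold E2F factors in a repressed state, and cyclin dependent kinases phosphorylate the pocket proteins and set E2F free when the cell commits to division. E2F1, E2F2 and E2F3 are classed as activators. E2F4 and E2F5 act mainly as repressors together with the pocket proteins p107 (RBL1) and p130 (RBL2), and E2F6 represses without a pocket protein, through Polycomb-type complexes. HEK293T cells hold the adenovirus E1A and SV40 large T proteins, which bind pocket proteins and loosen this control.

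Per array, 14029 to 15443 probes were detected (detection p under 0.01), and array medians before normalization ran from 6.90 to 7.33 on the log2 scale. Precision is limited by the 5 and 6 arrays per group. After normalization any pair of arrays correlated at 0.985 or more over the 14542 probes tested. Of the HEK293 markers looked for, NEFL, NEFM, VIM and KRT18 were detected on all 11 arrays, while PAX2 and KRT8 were detected on none. NEFM was higher in mutDFNA5 by 0.75. Among markers of other cell types 2 of 3 for leukocytes, 3 of 4 for fibroblasts and 2 of 3 for endothelium were detected on no array, and none was called. COL1A1 was detected on 2 arrays, CD14 on 8 and PECAM1 on 9.

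Of the 3 activator E2F genes 1 fell, 1 rose and 1 did not pass the test. E2F2 was significantly down-regulated in mutDFNA5 and E2F3 was significantly up-regulated, and they were the only 2 of the 11 tested probes with an adjusted p under 0.05, the threshold for a call. Among all 14542 probes tested 8.22% were called, 3.91% higher and 4.31% lower, so a count of 2 does not set these genes apart from other probes. The 2 probes were also the only ones of the 11 whose groups did not overlap, which held for 5.81% of all probes. When arrays were scaled by their medians over all probes instead, the share of lower probes among all calls moved from 52.4% to 16.1% and neither of the 2 probes was called.

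E2F2 encodes an activator E2F whose role overlaps with that of E2F1 and E2F3. The quantile-normalized log2 signals of its probe were 10.51, 10.32, 10.55, 10.56 and 10.47 on wtDFNA5 arrays 1 to 5. On mutDFNA5 arrays 1 to 6 they were 10.10, 9.79, 9.85, 10.03, 10.06 and 10.08. All 6 mutDFNA5 arrays lay below the lowest wtDFNA5 array. The mean was 10.48 ± 0.09 in wtDFNA5 (SD, n = 5) and 9.99 ± 0.13 in mutDFNA5 (SD, n = 6), a 1.41-fold decrease. On the log2 scale this is a change of -0.49 with a standard error of 0.08 and 95% confidence limits of -0.66 and -0.33 (limma, adjusted p = 0.000360). An exact permutation test over the 462 splits of the 11 arrays, two-sided and unadjusted, gave p = 0.00216, the smallest that these group sizes allow. Under median scaling over all probes the change was -0.38 (adjusted p = 0.0589), and with the median taken over the tested probes alone it was -0.47 (adjusted p = 0.00120).

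E2F3, which encodes the activator most broadly needed for cell division, went the other way. Its probe gave log2 signals of 11.44, 11.42, 11.61, 11.32 and 11.58 in wtDFNA5 and of 11.76, 12.02, 11.75, 11.77, 11.64 and 11.79 in mutDFNA5. Every mutDFNA5 array was above the highest wtDFNA5 array, although the gap between 11.61 and 11.64 was narrow. The mean rose from 11.48 ± 0.12 (SD, n = 5) to 11.79 ± 0.12 (SD, n = 6), a 1.24-fold increase and a log2 change of 0.31 (standard error 0.08, 95% confidence interval 0.15 to 0.48, limma, adjusted p = 0.0179). The exact permutation test gave p = 0.00433. Under median scaling over all probes the log2 change was larger, 0.42, and was not called (adjusted p = 0.0531). E2F3 makes different protein forms from separate promoters, and the sources used here do not say which of them the probe reads.

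Within each array the E2F3 signal minus the E2F2 signal does not depend on a shift of the whole array. This difference ran from 0.77 to 1.10 in wtDFNA5 and from 1.59 to 2.23 in mutDFNA5, with means of 0.99 ± 0.14 (SD, n = 5) and 1.80 ± 0.23 (SD, n = 6). It was therefore larger by 0.81 in mutDFNA5. The groups were already apart for both probes, in opposite directions, so their separation on this difference was given in advance. The level of one probe cannot be set against that of another, so only the shift of this difference between the groups can be read, and no test was made because the pair was chosen for its values.

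**Figure D1:**
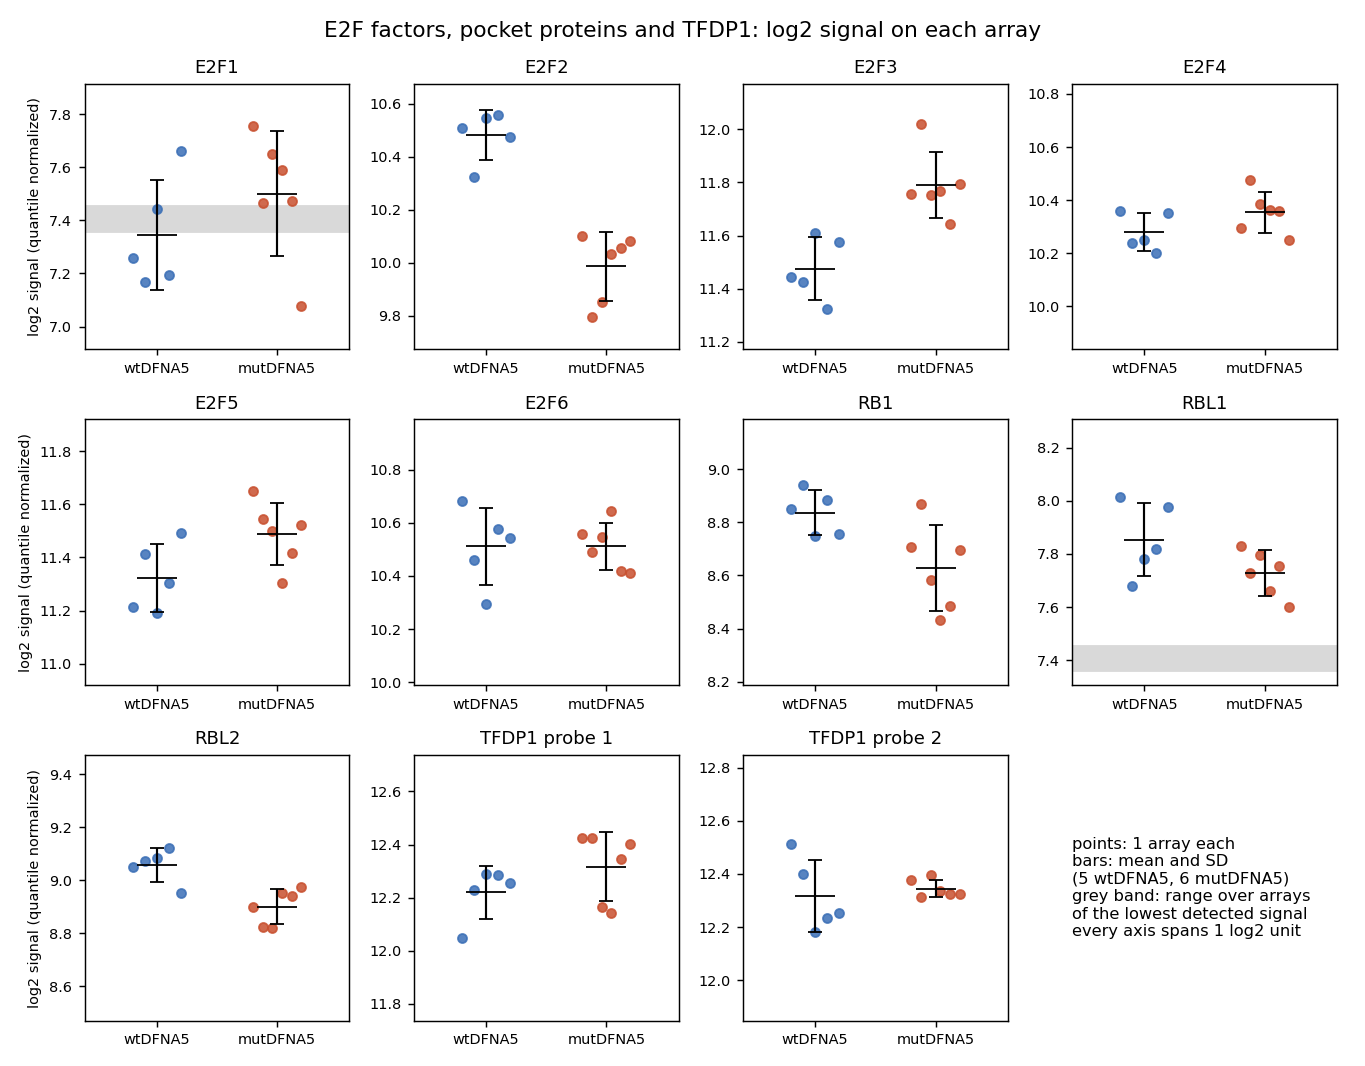
Quantile-normalized log2 signal (vertical axes, each spanning 1 log2 unit) of the 11 tested probes in wtDFNA5 (5 arrays) and mutDFNA5 (6 arrays), with 1 point per array and bars for mean and SD. The groups are apart for E2F2, with 9.79 to 10.10 in mutDFNA5 against 10.32 to 10.56, and for E2F3, with 11.64 to 12.02 against 11.32 to 11.61, and they overlap for the other probes.

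E2F1, the founding activator, which can also drive cell death genes, was read by a dim probe. Its log2 signals were 7.26, 7.17, 7.44, 7.19 and 7.66 in wtDFNA5 and 7.75, 7.46, 7.65, 7.59, 7.47 and 7.08 in mutDFNA5. The groups overlapped over nearly their whole range, and mutDFNA5 array 6 was the lowest of all 11. Detection was reached on 2 of 5 arrays in wtDFNA5 and on 5 of 6 in mutDFNA5. The dimmest detected probe of an array stood at 7.36 to 7.46, above the wtDFNA5 mean of 7.34. The log2 change of 0.16 (95% confidence interval -0.07 to 0.38, limma, adjusted p = 0.409) is not an exact size, and with normexp background correction it was 0.43 (adjusted p = 0.457).

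The promoters of the activator genes are shown because the family is known to act on its own genes: E2F sites lie in several E2F promoters. The sequences are RefSeq's 250 bases before the start site on GRCh38.p14, 5′ to 3′ along the gene, and capitals mark an E2F site. The site was searched as TTTCCCGC, TTTCGCGC, TTTGCCGC or TTTGGCGC on both strands, in a window that adds 50 bases after the start. Matches on opposite strands can overlap each other, and none did in these genes. The E2F2 promoter is at chr1:23531234-23531483 on the minus strand, E2F3 at chr6:20401629-20401878 on the plus strand, E2F1 at chr20:33686386-33686635 on the minus strand and RBL1 at chr20:37095998-37096247 on the minus strand.
E2F2: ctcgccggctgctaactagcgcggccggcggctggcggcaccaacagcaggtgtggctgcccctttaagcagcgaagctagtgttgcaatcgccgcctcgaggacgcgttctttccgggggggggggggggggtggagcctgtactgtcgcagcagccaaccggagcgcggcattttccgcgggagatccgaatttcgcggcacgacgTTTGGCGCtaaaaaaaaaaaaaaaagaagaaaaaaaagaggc
E2F3: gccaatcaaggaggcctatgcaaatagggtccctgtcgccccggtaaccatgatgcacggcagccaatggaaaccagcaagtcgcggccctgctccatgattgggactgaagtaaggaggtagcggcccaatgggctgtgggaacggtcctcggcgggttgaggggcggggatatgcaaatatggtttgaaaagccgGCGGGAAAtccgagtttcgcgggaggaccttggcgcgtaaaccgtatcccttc
E2F1: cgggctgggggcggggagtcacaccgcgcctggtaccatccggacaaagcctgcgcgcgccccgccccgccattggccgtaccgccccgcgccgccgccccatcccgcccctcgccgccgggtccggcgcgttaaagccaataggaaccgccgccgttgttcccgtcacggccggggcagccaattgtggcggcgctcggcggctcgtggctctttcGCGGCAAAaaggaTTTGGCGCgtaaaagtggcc
RBL1: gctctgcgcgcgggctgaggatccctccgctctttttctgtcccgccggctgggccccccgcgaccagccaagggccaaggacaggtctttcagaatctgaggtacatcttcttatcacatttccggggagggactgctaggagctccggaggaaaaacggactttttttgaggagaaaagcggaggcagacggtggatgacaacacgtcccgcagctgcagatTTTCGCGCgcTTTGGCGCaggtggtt

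E2F2, which fell, and E2F3, which rose, each held 1 such site, at -42 to -35 and at -53 to -46 from the start. A second E2F3 start site in RefSeq's promoter set had no match in its window. E2F1 held 2 sites at -33 to -26 and -20 to -13, and RBL1, the p107 gene, held 2 at -26 to -19 and -16 to -9. TFDP1 held 1 at -120 to -113. The RB1 window lies 172699 bases inside the gene, at 96.9% of its length, so the promoter at the RB1 gene start was not searched and RB1 is left out of the count. In the other 8 genes the window starts lie within the first 2.01% of the gene. Sites were found in 5 of these 8, against 3.33% of all 27305 promoters and 5.65% of the 8016 tested genes with a promoter, of which 1.76% and 1.67% start past the middle of their gene. For E2F4, E2F6 and RBL2 these letters were not in the windows. A match is a description of sequence only, and genes with a match were found among those that fell, rose and were not called.

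Repressor E2F genes were not called. E2F4 had log2 signals of 10.36, 10.24, 10.25, 10.20 and 10.35 in wtDFNA5 and of 10.30, 10.48, 10.39, 10.36, 10.36 and 10.25 in mutDFNA5. The groups overlapped, and the change was 0.07, within 95% confidence limits of -0.07 and 0.22 (limma, adjusted p = 0.580). E2F5, the other partner of the pocket proteins p107 and p130, had signals of 11.21, 11.41, 11.19, 11.30 and 11.49 in wtDFNA5 and of 11.65, 11.54, 11.50, 11.30, 11.42 and 11.52 in mutDFNA5. Of the 6 mutDFNA5 arrays 4 were above the highest wtDFNA5 array and the other 2 lay within its range. Its change of 0.17 had an interval of -0.0015 to 0.33 and missed the threshold (limma, adjusted p = 0.221, and exact permutation p = 0.0433, unadjusted).

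E2F6 showed the smallest change of the 11 probes. Its log2 signals were 10.68, 10.46, 10.30, 10.58 and 10.54 in wtDFNA5 and 10.56, 10.49, 10.55, 10.65, 10.42 and 10.41 in mutDFNA5, and all 6 mutDFNA5 arrays lay within the wtDFNA5 range. The means were 10.51 ± 0.14 (SD, n = 5) and 10.51 ± 0.09 (SD, n = 6). The change was -0.0002, and its interval at the 95% level was -0.17 to 0.16 (limma, adjusted p = 0.999). A second E2F6 probe reached detection on 1 wtDFNA5 array and on 0 mutDFNA5 arrays and was not tested. Its means were 7.19 and 7.08.

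Set side by side, the log2 changes of the 3 activator probes were 0.16, -0.49 and 0.31 and those of the 3 repressor probes 0.07, 0.17 and -0.0002. The activators thus held 1 fall and 1 rise, whereas the repressor values lay between -0.0002 and 0.17. Averaged per array, the activators were at 9.77 ± 0.11 (SD, n = 5) and 9.76 ± 0.07 (SD, n = 6), a difference of -0.0083. In this mean the fall of E2F2 stands against the rise of E2F3 and the 0.16 of E2F1, whose dim probe gives no exact size. With normexp background correction the changes of E2F1, E2F2 and E2F3 were 0.43, -0.55 and 0.32. The repressor mean was 10.70 ± 0.08 in wtDFNA5 and 10.78 ± 0.05 in mutDFNA5, a difference of 0.08. The activator mean minus the repressor mean ran from -1.07 to -0.71 in wtDFNA5 and from -1.08 to -0.96 in mutDFNA5, so the groups overlapped. These means over chosen genes are a description, and no p is given.

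**Figure D2:**
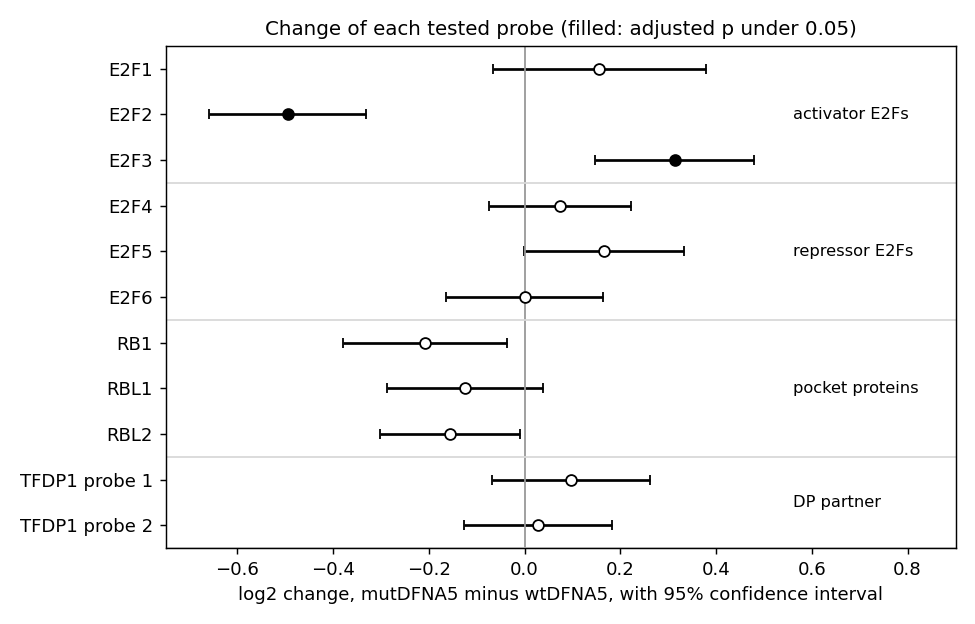
Log2 change, mutDFNA5 minus wtDFNA5 (horizontal axis), of the 11 tested probes with 95% confidence intervals, where filled points have an adjusted p under 0.05. E2F2 lies at -0.49 and E2F3 at 0.31, the repressor E2Fs lie between -0.0002 and 0.17, and the pocket proteins between -0.21 and -0.13.

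Pocket protein genes had lower means in mutDFNA5, and none was called. RB1, the retinoblastoma gene, had log2 signals of 8.85, 8.94, 8.75, 8.88 and 8.76 in wtDFNA5 and of 8.71, 8.87, 8.58, 8.43, 8.48 and 8.69 in mutDFNA5. Of the 6 mutDFNA5 arrays 5 were below the lowest wtDFNA5 array, and array 2 lay inside its range. The means were 8.84 ± 0.08 (SD, n = 5) and 8.63 ± 0.16 (SD, n = 6), a change of -0.21 (95% confidence interval -0.38 to -0.04, limma, adjusted p = 0.128, and exact permutation p = 0.0281, unadjusted). Over all alternatives the change of RB1 ran from -0.29 to -0.12 and was never called.

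RBL2 encodes p130, the pocket protein of resting cells. Its signals were 9.05, 9.07, 9.08, 9.12 and 8.95 in wtDFNA5 and 8.90, 8.82, 8.82, 8.95, 8.94 and 8.97 in mutDFNA5. Only wtDFNA5 array 5 reached into the mutDFNA5 range. The change was -0.16 (95% confidence interval -0.30 to -0.01), with limma's adjusted p = 0.181 and an unadjusted exact permutation p = 0.00866. Taken alone the probe therefore separated the groups almost fully, but the change was small and did not pass the adjustment over 14542 probes. Under median scaling over all probes it was -0.06 (limma, adjusted p = 0.824). The same permutation test, unadjusted, gave p = 0.268 for E2F1, 0.132 for E2F4, 0.104 for RBL1 and 0.197 and 0.623 for the TFDP1 probes. For E2F6 it gave a still larger p.

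RBL1, which is itself an E2F target gene in cycling cells, gave 8.01, 7.68, 7.78, 7.82 and 7.97 in wtDFNA5 and 7.83, 7.73, 7.80, 7.66, 7.76 and 7.60 in mutDFNA5. The groups overlapped, with 2 mutDFNA5 arrays below the lowest wtDFNA5 array, and the change was -0.13 (95% confidence interval -0.29 to 0.04, limma, adjusted p = 0.354). A second RBL1 probe was detected on 0 of the 11 arrays and was not tested. Its signals ran from 6.90 to 7.18, all dimmer than any detected probe.

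TFDP1, the DP partner that activator and repressor E2Fs share, was bright and read by 2 probes. The first gave 12.05, 12.23, 12.29, 12.28 and 12.25 in wtDFNA5 and 12.42, 12.42, 12.17, 12.14, 12.35 and 12.40 in mutDFNA5. The second gave 12.51, 12.40, 12.18, 12.24 and 12.25 against 12.38, 12.31, 12.39, 12.33, 12.33 and 12.32. In both the groups overlapped, and the probes did not order the arrays alike: wtDFNA5 array 1 was the lowest of the 11 with the first probe and the highest with the second. Their changes were 0.10 (95% confidence interval -0.07 to 0.26, limma, adjusted p = 0.505) and 0.03 (-0.13 to 0.18, limma, adjusted p = 0.864). For the mean of both probes the change was 0.06 (limma, adjusted p = 0.566).

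E2F2, as the probe with the largest called change, was also set against the other 9652 tested genes over the 11 arrays. GUSBP2, a pseudogene, the co-chaperone gene DNAJB1 and the Mediator subunit gene MED20 followed it most closely, with Pearson correlations of 0.944, 0.941 and 0.939 and Spearman correlations of 0.936, 0.900 and 0.843. The 11 points share the difference between the groups, and the 3 genes fell as well, by 0.67, 0.52 and 0.35 on the log2 scale, so the likeness is a description of these arrays.

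Both remaining E2F genes fell. E2F7 and E2F8 encode atypical E2Fs that bind DNA without a DP partner and repress E2F1 and other S phase genes, and both are known E2F targets themselves. E2F7 decreased from 9.45 ± 0.11 (SD, n = 5) to 9.08 ± 0.14 (SD, n = 6), by 0.37 (limma, adjusted p = 0.00740). E2F8 decreased from 7.76 ± 0.07 to 7.44 ± 0.12, by 0.32 (limma, adjusted p = 0.0114), and was detected on 4 of 6 mutDFNA5 arrays. The size of the E2F8 change is therefore not exact: with normexp background correction it was -0.77. In both genes the groups did not overlap. Among all genes 6.62% did not overlap and 8.97% were called. Both calls were lost with median scaling over all probes (-0.27, adjusted p = 0.201, and -0.29, adjusted p = 0.128). TFDP2, the second DP partner, was not called (-0.06, adjusted p = 0.754), and TFDP3 was not tested.

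Genes that E2F factors activate at the G1/S border were lower more often than higher. This list and the others were chosen with earlier results of these data known, so their shares called are a description. Of 41 tested members of the list, 12 fell, 1 rose and 28 did not pass the test, which is 31.7% called against 8.97% of the 9653 genes tested (4.05% higher and 4.92% lower), and the median log2 change was -0.10 against -0.0055 for all genes. DTL, which guides the destruction of CDT1, fell by 0.66, the thymidine kinase gene TK1 by 0.57 and the licensing factor gene CDT1 by 0.44. RRM2, the small subunit of ribonucleotide reductase, was the member that rose, by 0.39. In DTL, TK1, CDT1 and RRM2 the groups did not overlap, which held for 6.62% of all genes. These 4 were named for the largest changes among the called members, so a lack of overlap was nearly given. Under median scaling over all probes 2 members were called lower, with a list median of -0.015 beside 0.07 over all genes. Of the 41 tested members 38 had a promoter window. Of the 19 members with an E2F site in the promoter window 6 fell and 0 rose, and of the 19 without 4 fell and 1 rose. Among all tested genes with a window, 7.06% fell and 2.43% rose with a site, and 4.81% fell and 3.82% rose without.

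Genes of the G2 and mitotic phases, which the pocket proteins and the MuvB complex repress in resting cells, leaned the other way. Of 19 tested members 5 rose and 0 fell, which is 26.3% called against 8.97% of all genes (4.05% higher), with a median of 0.08 against -0.0055. The checkpoint kinase gene BUB1B was higher by 0.39, CCNF by 0.37, the cyclin B gene CCNB1 by 0.35 and CKS2 by 0.32, the last called with 1 of its 2 probes. The count was 3 under median scaling over all probes, without a filter and without wtDFNA5 replicate 4, and 0 with normexp background correction, where BUB1B was at 0.61 (adjusted p = 0.0583). CCNB1 was not called without wtDFNA5 replicate 4, wtDFNA5 replicate 2 or mutDFNA5 replicates 1, 2 or 5 (adjusted p up to 0.102).

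Of 14 tested G1 cyclins, CDKs and CDK inhibitors, which act upstream of the pocket proteins, 1 rose and 0 fell. This is 7.14% called, near the 8.97% of all genes, so the count says nothing particular of these regulators. The gene called was CCND1, cyclin D1, which starts the phosphorylation of RB and rose from 11.29 ± 0.10 (SD, n = 5) to 11.60 ± 0.15 (SD, n = 6), by 0.31 (limma, adjusted p = 0.0220). Its call was lost without wtDFNA5 replicates 1 or 5 or mutDFNA5 replicates 5 or 6 (adjusted p from 0.0532 to 0.0576) and with normexp background correction (adjusted p = 0.0572). The median of the list was -0.02, and CCNE1, cyclin E1, which E2F induces, was at -0.10 (adjusted p = 0.508).

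Genes of E2F cofactors and of E2F turnover included 5 that rose, among them CCNF, which also stands in the G2/M list. Of 17 tested members 5 rose and 0 fell, which is 29.4% called against 8.97% of all genes (4.05% higher). The list was chosen with earlier results known, so this share is a description. Without mutDFNA5 replicate 5, 1 member was called lower. SERTAD1, which binds the DP partner and stimulates E2F activity, rose from 9.66 ± 0.18 (SD, n = 5) to 10.47 ± 0.15 (SD, n = 6), a 1.76-fold increase (limma, adjusted p = 2.20e-06). TRRAP, a scaffold of histone acetyltransferases, CCNF, whose product helps to degrade E2F proteins, HCFC1, which recruits histone methyltransferases to E2F sites, and KMT2A rose by 0.42, 0.37, 0.32 and 0.32. KMT2A was named after its value was seen, and its groups overlapped (limma, adjusted p = 0.0424). The list held 4 higher members under median scaling over all probes, without a filter and with the replicate block. In those fits SERTAD1, TRRAP, HCFC1 and CCNF kept their calls. SERTAD1, TRRAP and HCFC1 kept their calls in the 19 alternatives run, and with normexp background correction 3 of the 5 members were called.

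In the remaining lists the calls were few, beside 8.97% of all genes called. Among 10 tested co-repressors of RB 0 were called (median 0.04), and the smallest p was that of SIN3B, a scaffold of histone deacetylases, at 0.31 (limma, adjusted p = 0.0652). Of the 5 tested MuvB core genes and FOXM1 0 were called, and LIN37 was at -0.24 (limma, adjusted p = 0.0959). No MYB factor of that list was tested. Of 11 tested genes of the E2F6 complex 1 fell, PCGF6, by 0.26 with 1 of 3 probes (limma, adjusted p = 0.0395), a call lost in 13 of 19 alternatives and a share (9.09%) close to that of all genes. The germline genes that E2F6 is known from mouse to silence gave no tested probe among the 7 looked for. Of 9 tested death genes that E2F1 can induce 1 rose (11.1%), PMAIP1 (NOXA), by 1.01 with both probes. In this list 1 member was called lower with the trended and robust prior and with all probes of a gene averaged. The same count was lower without wtDFNA5 replicate 2 and without mutDFNA5 replicate 4.

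**Figure D3:**
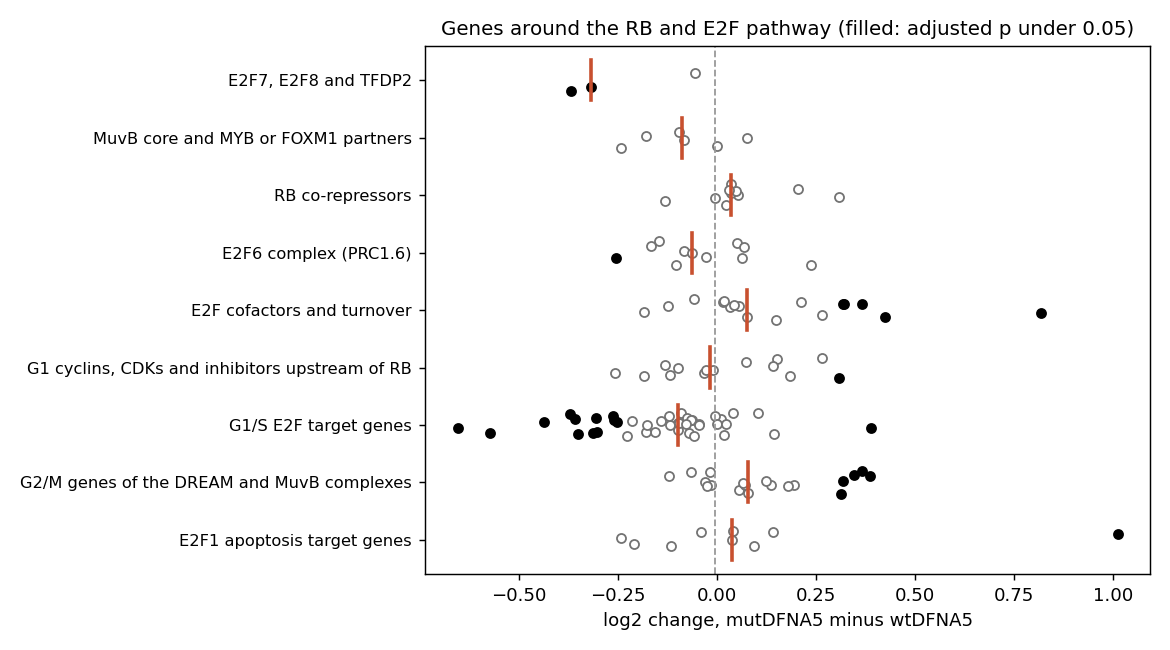
Log2 change, mutDFNA5 minus wtDFNA5 (horizontal axis), of each tested gene in 9 lists around the pathway, with 1 probe per gene, filled points for an adjusted p under 0.05, red bars for list medians and a dashed line for the median of all genes. Filled points lie mostly on the left for G1/S E2F target genes, 12 of 13. They lie on the right for G2/M genes, 5 of 5, and for E2F cofactors and turnover, 5 of 5, with CCNF in both.

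**Figure D4:**
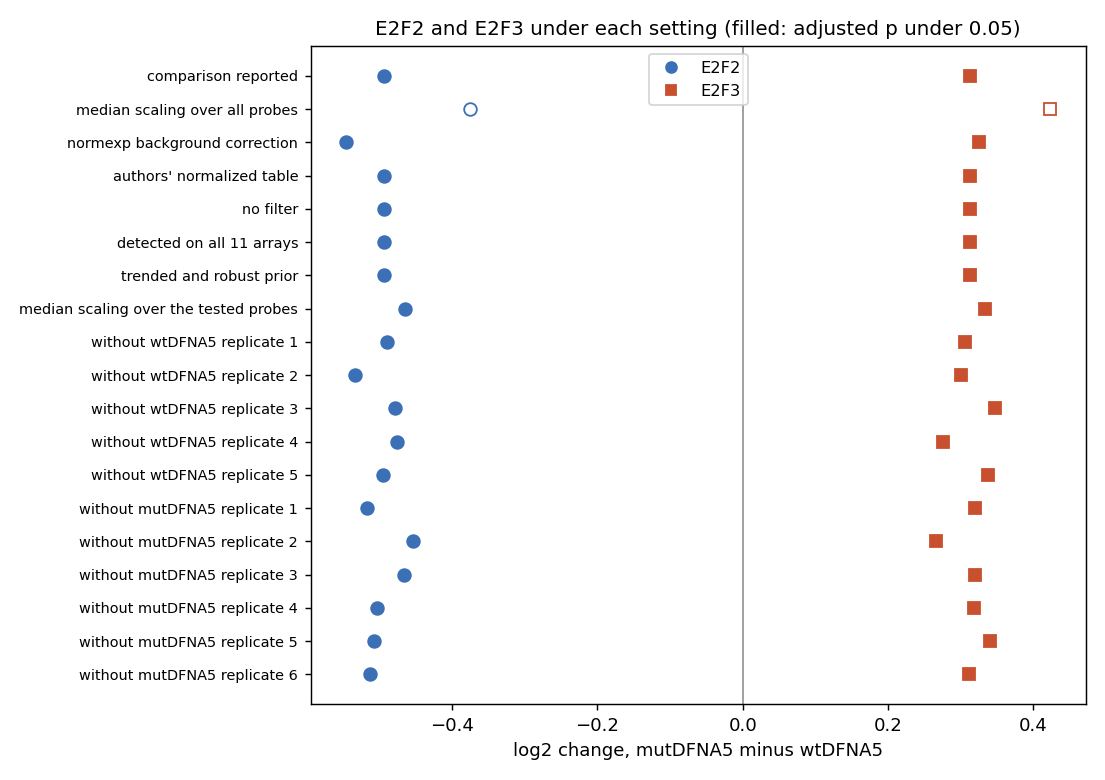
Log2 change, mutDFNA5 minus wtDFNA5 (horizontal axis), of the E2F2 and E2F3 probes under the processing alternatives and without each array in turn. Filled points have an adjusted p under 0.05. The replicate block is not drawn, and with it E2F3 was not called (0.31, limma, adjusted p = 0.0529). The signs are opposite in every row, and both points are open with median scaling over all probes, at -0.38 and 0.42.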

How the data were processed

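Total RNA was amplified to labelled cRNA and hybridized to Illumina HT12 beadchips. The authors deposited log2 signals per probe without normalization between arrays, with detection p-values set against negative control beads, and a quantile-normalized log2 table of the same arrays. Methods of the study describe quality control and quantile normalization in beadarray and testing in limma. Background correction is not mentioned. Processing notes of the submitters name limma 3.24.4. Groups came from the labels, which give no slide or batch, and the study describes the replicates as biologically independent.

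Quantile normalization was repeated here (limma 3.58.1, R 4.3.3), and no value was further than 0.0191 from the authors' table. A probe was tested if 5 or more of the 11 arrays had a detection p below 0.01, which left 14542 of 42000. Quantile normalization removes a shift common to most transcripts, and without background subtraction the log2 changes of dim probes come out too small. Platform annotation, for a later version of the beadchip than the methods name, gave 1 symbol to 27916 probes, several to 7 (left unnamed) and none to 14077, and symbols were updated through RefSeq of GRCh38.p14. For lists the probe with the highest mean stood for its gene.

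mutDFNA5 was compared with wtDFNA5 by limma's moderated test over all 11 arrays without covariates (two-sided). Benjamini-Hochberg adjustment was made across the 14542 probes. All adjusted p-values are from such fits. The fit was tested on simulated data with independent noise per probe and no normalization step, so that test does not bear on normalization. Named genes were every probe of the 10 genes, and of each list up to 4 called genes with the largest change or else the gene with the smallest p, plus the 3 genes most like the member with the largest called change. Members and lists were chosen with earlier results of these data known. Of the lists, 2 genes of E2F cofactors and turnover, 5 G1 regulators, 3 G1/S genes, 1 G2/M gene and 1 death gene also stood in another list. Promoter sequences are from RefSeq, and 9 of the 10 genes matched. The RB1 entry is an internal start and was left out.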

Additional observations from a re-analysis of the deposited data

Results flagged for a closer look

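In 30 groups examined (13 probes and 2 differences, in 5 wtDFNA5 and 6 mutDFNA5 arrays), 2 held an array far from the others by Dixon's criterion, which chance gives in about 1 of 20 groups. With the first TFDP1 probe, wtDFNA5 array 1 was at 12.05 while the other 4 wtDFNA5 arrays were between 12.23 and 12.29. With the RBL1 probe that was detected on no array, the same array was at 6.90 while the other 4 were between 7.10 and 7.18, and both ends lie below the lowest detected signal.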

How the results depend on the processing

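Median scaling over all probes ended the calls of E2F2 and E2F3, so that 0 member probes were called higher and 0 lower, with 376 of all probes called higher and 72 lower in place of 569 and 627, and 2 G1/S target genes lower in place of 12. Without a filter 400 of all probes were called lower. Normexp background correction, the authors' table, no filter, detection on all 11 arrays, the trended and robust prior and median scaling over the tested probes (chosen after the data were seen) kept the calls of E2F2 and E2F3, although E2F1 was not tested with detection on all 11 arrays. Without any 1 array, 425 to 548 of all probes were higher and 438 to 572 lower, 1 to 1 member probes were higher and 1 to 1 lower, and 8 to 11 G1/S target genes were lower and 1 to 1 higher. For arrays with equal replicate numbers, the correlations of their deviations from the group means ran from -0.058 to 0.108. Of 5 wtDFNA5 arrays 1 correlated best with its own number. This cannot decide whether the arrays were paired. A wtDFNA5 sample failed quality control in the study, so equal numbers need not mark the same experiment. With a replicate block 374 of all probes were higher and 388 lower, E2F2 kept its call (-0.51, adjusted p = 0.00109), E2F3 was at 0.31 (adjusted p = 0.0529) and 0 member probes were called higher. In the same fit CCND1 (0.28, adjusted p = 0.0605), CKS2 (0.27, adjusted p = 0.0651) and PCGF6 (-0.28, adjusted p = 0.0683) were not called. The change of E2F6, at -0.0002 in the comparison reported, had no stable sign. It was 0.12 under median scaling over all probes, 0.000117 with normexp background correction, 0.020 with the replicate block, 0.026 under median scaling over the tested probes and -0.054 to 0.043 without any 1 array. The second TFDP1 probe ran from -0.0072 to 0.077 without any 1 array. None of these values passed the test. The cause of these differences was not tested. Signals near the detection limit (E2F1, E2F8) give changes without an exact size.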

Other observations

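Tested genes, those of the lists included, were split by the E2F site in their promoter windows. RefSeq's promoter set held a window for 83% of them (8016 genes). Of 453 genes with a site 7.06% were called lower and 2.43% higher, with a median log2 change of -0.03. Of 7563 genes without a site 4.81% were called lower and 3.82% higher, with a median of -0.0061. Genes are not independent replicates, and the difference was not tested. The short element TTTGAA, known from mitotic gene promoters, was in 15.4% of all promoter windows and in 9.74% of those of tested genes. Of the 9 chosen genes with a window, RB1 and its internal window included, 2 held it (22.2%). These were E2F3 (-65 to -60) and RBL2 (25 to 30).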
